A study of Mus musculus with 2 samples.

Results

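The genes of the cytosolic ribosomal proteins, the protein part of the particles that translate mRNA, were compared between mouse ovaries cultured with agonists and with antagonists of the tachykinin receptors (TKRs). Members were the non-control probes whose RefSeq symbol was Rpl or Rps followed by a number, or Rplp0, Rplp1, Rplp2 or Rpsa, without the Rps6k kinases and pseudogene symbols. This rule took 88 names and 178 probes on the array. It also took Rps19bp1 and Rps23rg1, which are not ribosomal proteins and were set aside, so that 86 genes were left, of which 9 are paralogs of another member. Of these 86, 85 were measured on both arrays, 52 of the large and 33 of the small subunit, among 15260 named genes measured on both. Rpl3l, the muscle paralog of Rpl3, was not well above background on either array (signals of 7.41 and 4.73 units), and 7 further RefSeq names that fit the rule had no probe here.

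Ovaries from mice aged 2 weeks were each divided in 2 and kept in culture for 3 days at 37 °C in 5% CO2, and the total RNA of each condition was read on 1 single-colour (Cy3) array. The agonist array held RNA from ovaries given [Sar9, Met(O2)11]-SP for TACR1, GR-64349 for TACR2 and senktide, a succinylated fragment of substance P, for TACR3. The antagonist array held RNA from ovaries given GR-94800 for TACR2, SB218795 for TACR3 and a non-peptide antagonist of TACR1, each ligand at 1 μM in both conditions. Whether the ligands of a condition were given together, or RNA of separate cultures was pooled, is not given in the sources used here, nor are the number of ovaries behind each RNA and the strain, and no array of untreated ovaries was analysed here. A ratio below compares agonists with antagonists and not either of them with an untreated state. With 1 array per condition there was no spread between ovaries and no statistical test was made.

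A ribosome consists of a large and a small subunit, each built in the nucleolus from ribosomal RNA and a set of proteins that are needed in nearly equal numbers. The mRNAs of these proteins are among the most abundant in growing cells, and most begin with a cytosine followed by a run of pyrimidines (a terminal oligopyrimidine or TOP tract), through which mTOR signalling and LARP1 control their translation. The growing oocyte stores ribosomes for the early embryo, and granulosa cells make them as they divide around it.

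Pyrimidine runs of this kind were looked for at the annotated starts. RefSeq promoter entries were found for 64 of the 85 members (build GRCm38.p6). Windows from 10 bases before to 20 after the annotated start are printed 5′ to 3′, so that the last 20 bases lie in the first exon. Capitals mark the longest run of C and T counted from a C within 10 bases of the start, where it had at least 6 bases. The first 6 show such a run across the start in genes of both subunits, and the last 4 belong to members at the ends of the range of ratios.
Rpl35 (chr2:39005112-39005141, minus strand): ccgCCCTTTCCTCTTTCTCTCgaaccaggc
Rpl15 (chr14:18270967-18270996, minus strand): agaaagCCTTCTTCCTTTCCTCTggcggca
Rpl14 (chr9:120571507-120571536, plus strand): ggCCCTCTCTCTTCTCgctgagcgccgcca
Rps6 (chr4:86857348-86857377, minus strand): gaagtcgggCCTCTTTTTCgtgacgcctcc
Rps18 (chr17:33955646-33955675, minus strand): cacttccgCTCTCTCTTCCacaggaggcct
Rps10 (chr17:27635225-27635254, minus strand): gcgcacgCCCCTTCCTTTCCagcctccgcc
Rpl22l1 (chr3:28805498-28805527, plus strand): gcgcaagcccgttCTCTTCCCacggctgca
Rps3a1 (chr3:86142649-86142678, minus strand): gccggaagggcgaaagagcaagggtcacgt
Rps23 (chr13:90923112-90923141, plus strand): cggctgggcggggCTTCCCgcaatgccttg
Rps28 (chr17:33824543-33824572, minus strand): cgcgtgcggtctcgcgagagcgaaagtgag

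A C at the annotated start itself, followed by C or T to a run of at least 5 bases, was present in 14 of the 64 members (21.9%), against 467 of 17492 protein-coding genes (2.67%). The run of at least 6 bases near the start was present in 35 members (54.7%) and in 22.3% of coding genes, so that 29 of the 64 members showed none by this rule. Within the full 300 bases (250 before and 50 after the start), the letters CCGGAAG, a match to the GABP motif, occurred on either strand in 26 members (40.6%) and in 12.9% of coding genes. The letters AAGATGGC, a match to the YY1 motif, which begins with the last 3 letters of CCGGAAG and can overlap it, were found in 6 members (9.38%) and in 3.57% of coding genes. TATAAA was found in 8 members (12.5%) and in 14.8% of coding genes. A match is a description of the letters in these windows, and an annotated start can lie some bases from the one used in the ovary.

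Signals were set on one scale by dividing each array by its own 75th percentile, which was 672 units (agonists) and 569 units (antagonists). Every log2 ratio is that of the scaled agonist signal over the scaled antagonist signal, so that a negative ratio is a lower signal with the agonists, and a gene with several probes was read from the probe of the highest mean signal. Ribosomal protein genes lay close together and slightly below the median of all genes in this ratio. Their median log2 ratio was -0.18 with an interquartile range of 0.12 and an SD of 0.10 over the 85 genes. All 15260 genes had a median of -0.10, an interquartile range of 0.42 and an SD of 0.48. The difference of the medians, members minus all genes, was -0.09.

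**Figure D1:**
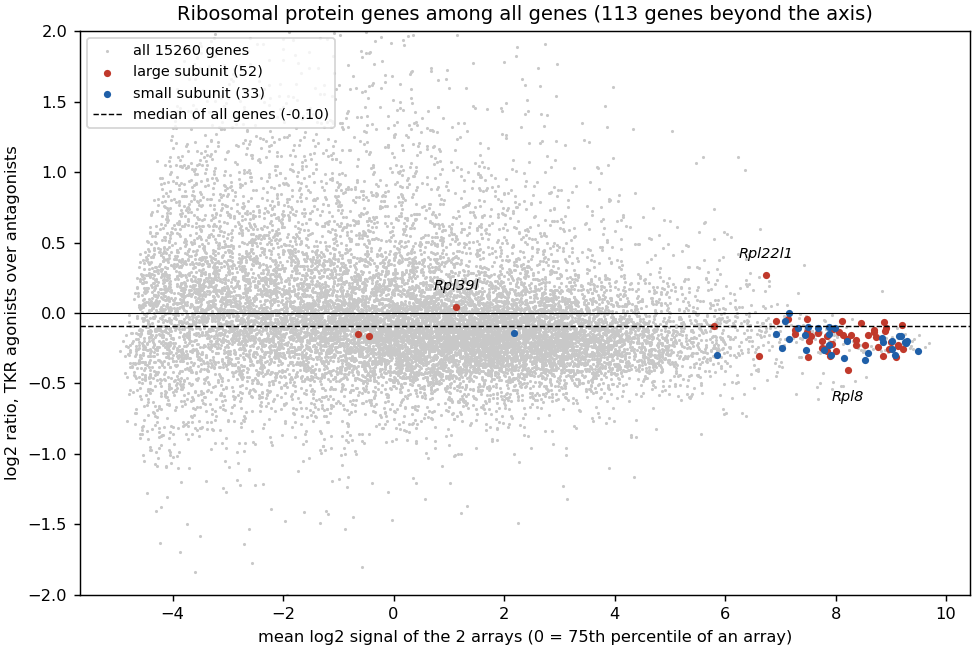
Log2 ratio of TKR agonists over TKR antagonists (vertical axis) against the mean log2 signal of the 2 arrays (horizontal axis, 0 at the 75th percentile of an array) for 15260 genes, 1 point each, with large subunit genes in red, small subunit genes in blue and the median of all genes (-0.10) as a dashed line; 113 genes lie beyond the vertical axis. The 85 ribosomal protein genes form a narrow band at the bright end, with Rpl22l1 above it and Rpl8 at its lower edge.

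The band was narrow and, with this scaling, lay mostly below 0. Its side of 0 rests on the scaling, as described below. Of the 85 genes, 83 had a log2 ratio below 0, where 62.3% of all genes did, and 73 lay below the median of all genes. A log2 ratio of at least 0.32 in size, the threshold used below for a small change, was reached upward by 0 of the 85 genes (16.3% of all genes) and downward by 3 (18.6% of all genes), the 3 being Rpl8, Rps28 and Rps23. The other 82 genes (96.5%) lay within this threshold either way, against 65.2% of all genes. No member was 2-fold higher (4.01% of all genes) or 2-fold lower (0.577% of all genes).

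Members were among the brightest features of the array, and bright genes as a whole had a narrower range. Of the 85, 81 were at or above the 95th percentile of all genes in mean signal. The other 682 genes of that brightest 5% had a median log2 ratio of -0.17, an interquartile range of 0.24 and an SD of 0.26. Of these 682, 544 (79.8%) were below 0, 33 (4.84%) were higher by at least 0.32, 127 (18.6%) were lower by at least 0.32 and 522 (76.5%) lay between. The median of the members was thus close to that of the other bright genes, and their range was smaller. The sets were not matched in brightness. With paralogs set aside, even the dimmest member outranked 98.5% of genes, while the other bright genes reach down to the 95th percentile. Whether the range of the members is also smaller than that of genes of equal signal was not tested.

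The sign of the median rests on how the arrays were set on one scale. Before scaling, the signal was higher with the agonists in 62 of the 85 members and lower in 23, and their median log2 ratio was 0.06. All genes then had a median of 0.15, so most of them were higher too, and their exact share was not counted. The median of the members was 0.09 when the arrays were scaled on the 8 spike-in probes and -0.08 in the authors' own values. After quantile normalization it was -0.0025 and after loess -0.0082. The median of the members minus that of all genes was -0.09 under each scaling by a constant, -0.03 with normexp background correction, -0.04 among bright probes, -0.01 after loess and 0.05 after quantile normalization. The SD over the members ranged from 0.08 to 0.17 across all settings, and that over all genes from 0.37 to 0.64. Members summed to 18.8% of the signal of all measured genes with agonists and to 19.4% with antagonists, which describes signal and not numbers of mRNA molecules, since probes differ in brightness.

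**Figure D2:**
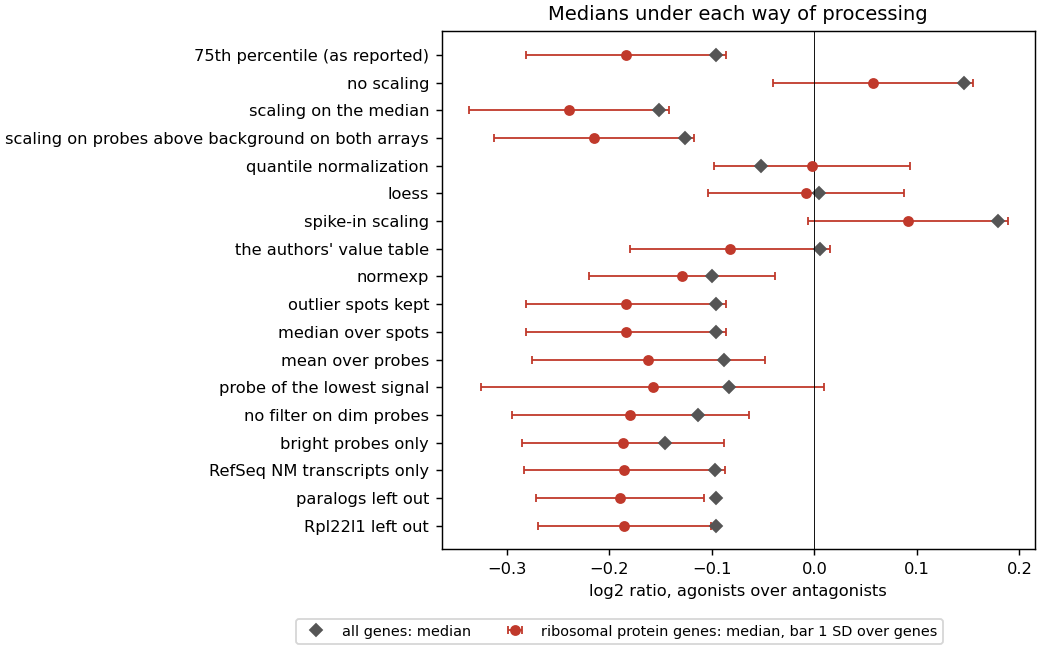
Median log2 ratio of TKR agonists over TKR antagonists (horizontal axis) under each way of processing (rows), for the ribosomal protein genes (red, bar of 1 SD over genes) and for all genes (grey). The ribosomal protein genes lie to the left of all genes in every row except quantile normalization, while their position relative to 0 moves from -0.24 with scaling on the median to 0.09 with spike-in scaling.

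The precision of a single ratio was read from probes printed at several spots. Among 22 bright probes printed at 10 spots each, the SD of the log2 ratio over spots had a median of 0.05 and was at most 0.10. The image software gave an error of 0.20 to 0.21 for the log2 ratio of each measured member, which covers the measurement of a spot and not the spread between ovaries. Against this error the order of most neighbouring genes is not resolved. It exceeds the SD of 0.10 over the members, whereas an independent error of this size for each gene would give a larger SD. It also exceeds the SD over spots and that between bright probes of a gene (0.05), so it is a wide yardstick for differences between genes. No member spot was saturated.

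Large and small subunit genes were nearly alike. The large subunit had a median log2 ratio of -0.16 (SD 0.11 over 52 genes), with 50 of the 52 genes below 0. The small subunit had a median of -0.20 (SD 0.08 over 33 genes), with all 33 below 0, from -0.34 to -0.00. The medians differed by 0.03, large minus small, and the means by 0.02. Without paralogs the medians were -0.18 (46 genes) and -0.20 (31 genes) and differed by 0.02, and all 77 genes were below 0 with an SD of 0.08. These differences are smaller than the spread over the genes of either subunit. Past 0.32 downward were 1 large and 2 small subunit genes. Of all genes, 62.3% were below 0 and 18.6% were past 0.32 downward. Of the other bright genes, 79.8% and 18.6% were. The sign of the subunit values rests on the scaling, as described above for all members.

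**Figure D3:**
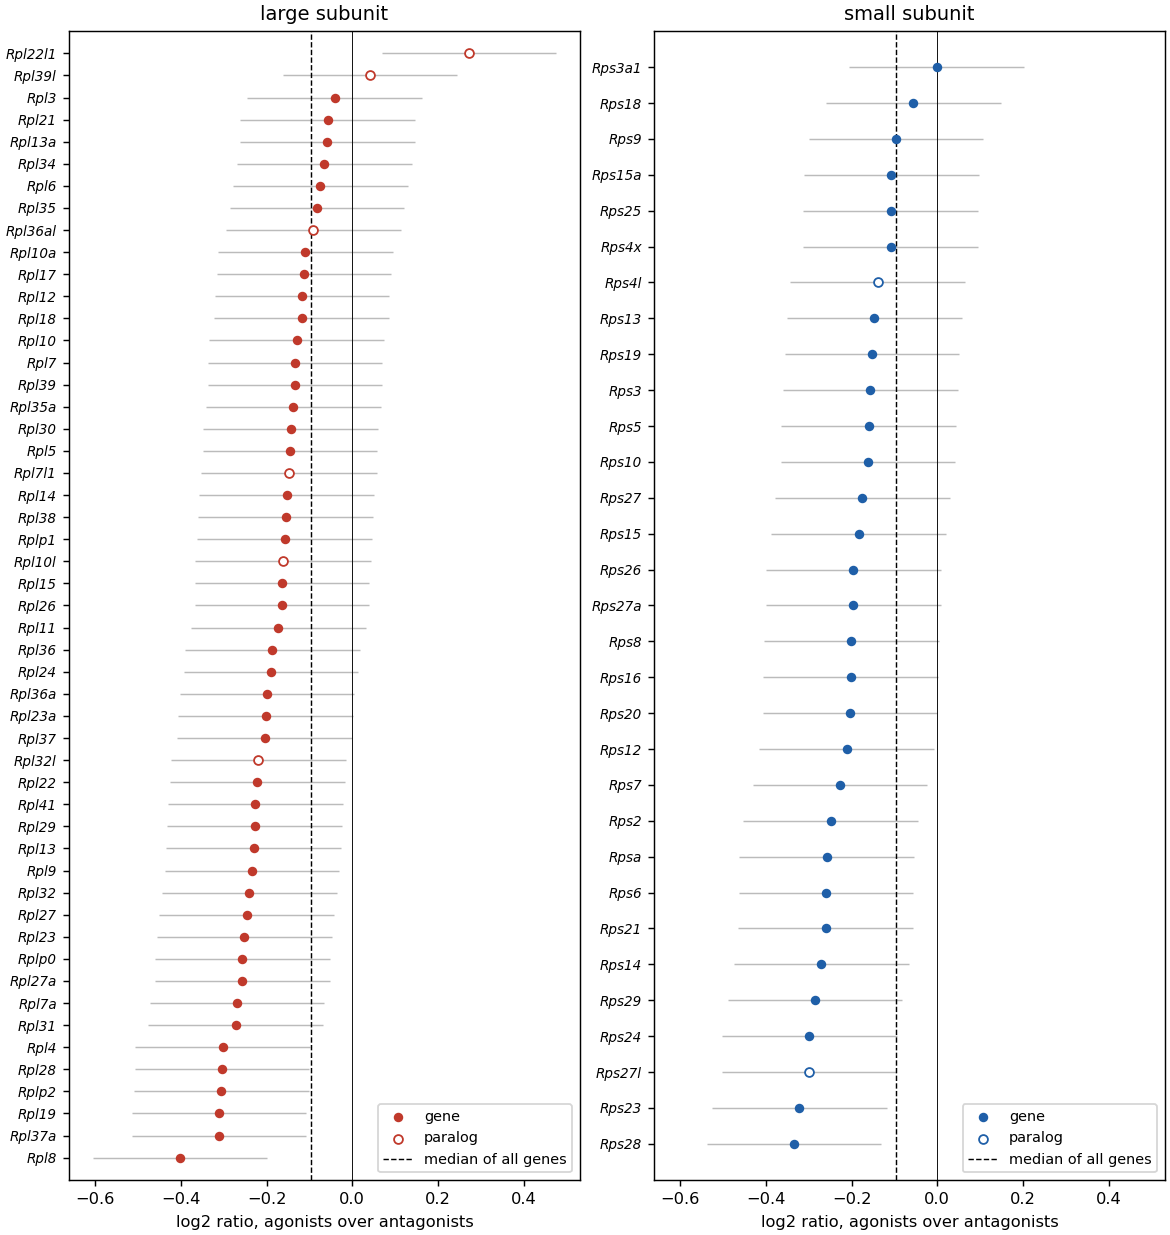
Log2 ratio of TKR agonists over TKR antagonists for 82 of the 85 measured ribosomal protein genes, large subunit (left, red) and small subunit (right, blue), with open circles for paralogs, grey bars for the error that the image software gives for a ratio and a dashed line for the median of all genes. The subunits cover a like range, and in each the bars of neighbouring genes overlap, with Rpl22l1 alone to the right of the others.

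Among large subunit genes the lowest was Rpl8, a core protein near the peptidyl transferase centre, which read 174147 units with agonists and 194713 with antagonists, a log2 ratio of -0.40 (software error 0.20). Its other probe gave 61138 and 60606 units and a log2 ratio of -0.23. This second probe lay nearer to the median of the members than the first. Next came Rpl37a (331174 and 347663 units, log2 ratio -0.31), Rpl19 (108911 and 114316, -0.31), Rplp2 (281669 and 294513, -0.31) and Rpl28 (59588 and 62225, -0.30). These 5 were lower with the agonists before scaling as well as after it.

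The highest large subunit gene was Rpl22l1, a paralog of the RNA-binding protein Rpl22 that can take its place in the ribosome. Its single spot read 78990 units with agonists and 55300 with antagonists, a log2 ratio of 0.27 (software error 0.20). It lay 0.23 above the next gene, a gap below the software error of 0.29 for a difference between 2 genes, and 5.42 SDs of the other members above their mean. As it was picked for being the highest member, this distance is no test. Among all genes its log2 ratio was at the 81.9th percentile. Rpl22 itself gave 153269 and 151187 units and a log2 ratio of -0.22, so that paralog and parent differed by 0.49 (software error of the difference 0.29). Rpl22l1 was above 0 in every setting that kept it, from 0.22 with scaling on the median to 0.55 with spike-in scaling, and as reported it did not reach 0.32. It was read from 1 probe, and no second probe was present to set beside it.

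Among the next highest of the large subunit were Rpl39l (1495 and 1229 units, log2 ratio 0.04), Rpl3, which reaches towards the peptidyl transferase centre (93143 and 81074, -0.04) and Rpl21 (79472 and 69945, -0.06). Rpl39l is a paralog of Rpl39 best known from male germ cells. Apart from Rpl22l1, the large subunit genes ran from -0.40 to 0.04 with no gap between neighbours that exceeds the software error.

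In the small subunit the lowest were Rps28 (222305 units with agonists and 237177 with antagonists, log2 ratio -0.34) and Rps23, a protein of the decoding centre (170156 and 179943, -0.32). They were followed by Rps27l, a paralog of Rps27 known as a p53 target (35008 and 36447, -0.30), and Rps24 (325624 and 338744, -0.30). Rps24 had a probe for each of 3 RefSeq transcripts, with log2 ratios of -0.30, -0.27 and -0.18, all on the same side of 0. The highest was Rps3a1 (96353 and 81591 units, log2 ratio -0.00), whose other probe gave 77198 and 73147 units and a log2 ratio of -0.16. Rps18 (89257 and 78475, -0.06), Rps9 (152968 and 138301, -0.10) and Rps15a (164751 and 150154, -0.11) were among the next. No small subunit gene stood as far from the rest as Rpl22l1 did in the large subunit.

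Groups of members with a shared place or role were read next. The stalk, which recruits the GTPases of translation, had a median log2 ratio of -0.21 over 4 genes. Its base protein Rplp0 gave 365672 and 369498 units (log2 ratio -0.26), its tip proteins Rplp1 197200 and 186057 units (-0.16) and Rplp2 -0.31, and the neighbouring Rpl12 267978 and 245874 units (-0.12). The partners of 5S RNA that bind MDM2 when ribosome assembly is disturbed were close together, with Rpl11 at -0.17 and Rpl5 at -0.15. Proteins at the rim of the exit tunnel, where the new chain emerges, had a median of -0.18 over 8 genes, from Rpl19 at -0.31 to Rpl35 at -0.08. Proteins along the mRNA path of the small subunit had a median of -0.22 over 6 genes, from Rps14 at -0.27 to Rps3 at -0.16. They included Rpsa, also known as the laminin receptor, with 318342 and 322169 units and a log2 ratio of -0.26.

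The 4 X-linked members had a median of -0.13, from Rpl36a at -0.20 to Rps4x at -0.11. A list of 11 of the members named in Diamond-Blackfan anaemia, an inherited failure of red cell production, had a median of -0.17, from Rps24 at -0.30 to Rpl35a at -0.14. Ribosomal proteins whose symbols fall outside the rule lay in the same band, among them Fau at -0.17 and Rack1 at -0.15. The group medians ran from -0.22 to -0.13. The lists are partial, and the 3 members past 0.32 are in none of them. The 35 members with a run of at least 6 pyrimidines near the start had a median of -0.16, and the 29 matched members without one had a median of -0.20.

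Of the 9 paralogs, 8 were measured on both arrays. Beside Rpl22l1, the difference between paralog and parent in log2 ratio was 0.18 for Rpl39l, 0.11 for Rpl36al, 0.02 for Rpl32l, -0.01 for Rpl7l1, -0.03 for Rpl10l, -0.03 for Rps4l and -0.12 for Rps27l. All 7 are below the software error of such a difference, 0.29. The transcript of Rps4l on the array carries a RefSeq accession for noncoding RNA. A probe for a paralog or for a gene with processed pseudogenes can also bind transcripts of its near copies, and no probe sequence was analysed here to separate them.

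The 52 genes with more than 1 probe give a check within each gene. Their probes spanned a range of 0.09 in log2 ratio in the median gene, up to 0.1 in 30 genes and up to 0.2 in 42. In 44 genes with more than 1 bright probe, the SD between probes of a gene was 0.05 and that between genes was 0.08. Rpl17 had 7 probes, of which 6 bright ones lay between -0.15 and -0.08. Its remaining probe, with 1714 and 1239 units, gave 0.23.

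Over 0.5 in range were 3 genes, and in each a dim probe was above the bright ones. Rps25 gave -0.11 at its bright probe (132866 and 121200 units) and 0.68 at the other (772 and 408 units). Rps6, the substrate of the S6 kinases, gave -0.26 (136017 and 137740 units) and -0.15 (72555 and 68301 units) at its brighter probes and 0.27 at its dimmest (7451 and 5219 units).

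For Rpl23 the bright probes gave -0.25 (306219 and 308557 units) and -0.26 (185965 and 187869 units), while a dimmer probe, printed at 10 spots, gave 0.34. The 10 spots read 6237 to 6969 units with the agonists (mean 6561 ± 227 SD over spots) and 4170 to 4571 units with the antagonists (mean 4385 ± 133). The spots of the arrays did not overlap, and the log2 ratio per spot ran from 0.25 to 0.50 (SD 0.07). The spots repeat the measurement of the same RNA and are not separate ovaries. The disagreement between the probes of Rpl23 was therefore larger than the spread over spots.

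**Figure D4:**
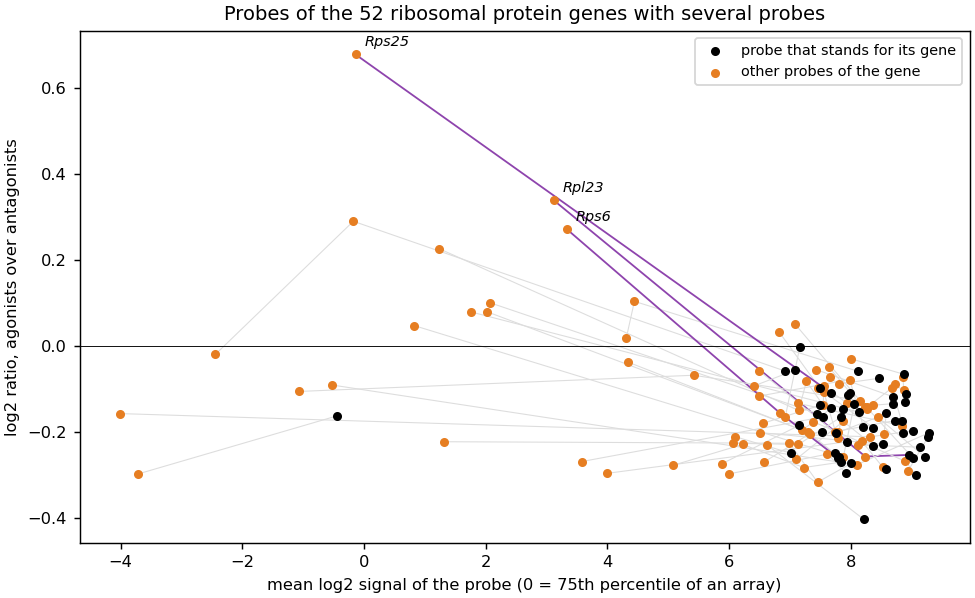
Log2 ratio of TKR agonists over TKR antagonists (vertical axis) against the mean log2 signal of the probe (horizontal axis, 0 at the 75th percentile of an array) for the 52 ribosomal protein genes with several probes; black points stand for their gene, orange points are its other probes and lines join probes of a gene. The purple lines mark Rps25, Rpl23 and Rps6, whose probes differ by over 0.5, each with a dim probe above the bright ones.

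Of 87 other probes of these genes, 56 were above the probe that stands for the gene and 9 were off by over 0.2. All 9 were above it, belonged to 9 genes and had agonist signals of 658 to 13451 units, whereas the probes that stand for these genes had at least 79472 units. The 67 other probes with at least 20000 units deviated by at most 0.19. Of the 20 with less, 11 were within 0.2. Taken over the 172 probes rather than the genes, the members had a median of -0.16 and an SD of 0.14. Rps15a had 1 probe that was not well above background on either array (13.1 and 12.7 units), and Rpl6 had 1 that was so on the agonist array alone (30.0 against 20.7 units). Their other probes carried the values above.

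Other genes of protein synthesis were set beside the members. For the counts that follow, 62.3% of all genes were below 0, 18.6% were lower by at least 0.32 and 16.3% were higher by as much. The side of 0 rests on the scaling for these lists too. Without scaling the medians were -0.0011 for mitochondrial ribosomal proteins and 0.08 for other genes of TOP mRNAs. They were 0.03 for initiation factors, -0.04 for ribosome assembly and 0.15 for all genes. Mitochondrial ribosomal proteins, which serve the separate ribosomes of that organelle, had a median log2 ratio of -0.24 over 77 genes with an SD of 0.17. Of these, 73 were below 0, 26 were lower by at least 0.32 and 0 were higher by as much. The lowest were Mrpl49 (2021 and 2840 units, -0.73), Mrps6 (3030 and 3872, -0.60) and Mrps26 (8375 and 10568, -0.58), and the highest was Mrps28 (7146 and 5013, 0.27). With this scaling, cytosolic and mitochondrial sets were both below the median of all genes, by 0.09 and 0.15, and the cytosolic set had the smaller spread. The mitochondrial genes named here read at most 10568 units, and the cytosolic members without paralogs at least 59588. The spreads were not compared at equal signal. After quantile normalization the cytosolic set lay 0.05 above all genes, and the mitochondrial set was not read in that setting.

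Translation factors and other proteins whose mRNAs are known for TOP tracts had a median of -0.16 over 15 genes, with 13 below 0, 2 lower by at least 0.32 and 0 higher by as much. The 2 were Eef1d, a subunit of elongation factor 1, and Hnrnpa1, a splicing regulator and no translation factor (8543 and 9224 units, -0.35). Among them, the elongation factors Eef1a1 (165321 and 156210 units) and Eef2 (67483 and 62653 units) were at -0.16 and -0.13, within the band of the ribosomal proteins. Eef1d was lowest at -0.37 and Naca, of the nascent chain complex, highest at 0.05. Initiation factors and their inhibitors had a median of -0.21 over the 18 of 19 measured, all below 0, with 5 lower by at least 0.32, from Eif1 at -0.50 to Eif3a at -0.07.

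Genes of ribosome assembly in the nucleolus had a median of -0.28 over 30 genes, with 27 below 0, 10 lower by at least 0.32 and 0 higher by as much. Nucleolin (Ncl) gave 17903 and 19021 units (-0.33) and fibrillarin (Fbl) 9409 and 9516 units (-0.26). The lowest were Nop16 (-0.50), Nop14 (-0.48) and Nop2 (-0.48), and the highest was Pes1 (0.25). Among 9 regulators of ribosomal protein synthesis the median was -0.19. Mtor was at -0.12, Larp1 at -0.20 and the S6 kinase Rps6kb1 at -0.19. Mycn, a driver of ribosome synthesis, was lower with the agonists, at 2147 against 3628 units, which is 0.501-fold after scaling. Myc gave 759 and 518 units, a log2 ratio of 0.31, and the kinase Rps6ka1 gave 5528 and 2710 units, a log2 ratio of 0.79. These 3 genes carried the spread of the list (SD 0.48), whose interquartile range of 0.11 was close to that of the ribosomal protein genes.

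**Figure D5:**
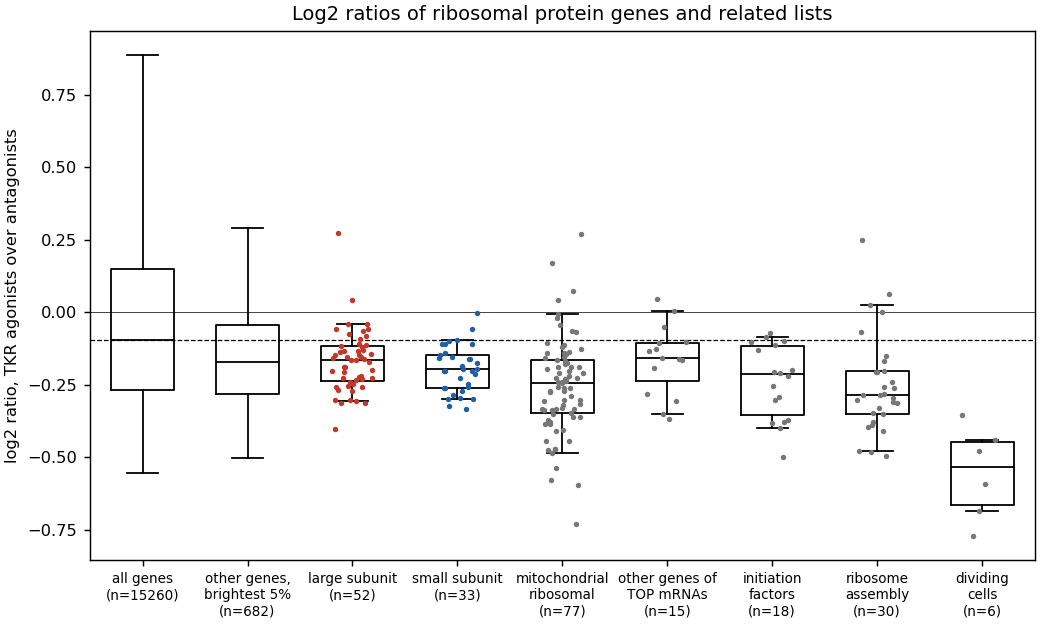
Log2 ratios of TKR agonists over TKR antagonists for all genes, for the other genes of the brightest 5%, for large and small subunit genes and for related lists, with boxes for the quartiles, a line for the median, whiskers from the 5th to the 95th percentile, points for single genes of the lists and a dashed line for the median of all genes. The subunit boxes are narrower than those of all genes and of the other bright genes, and the 6 genes of dividing cells lie between -0.77 and -0.36.

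Markers of ovarian cell types were read on the same arrays, since in RNA of whole tissue fewer cells of a type and less RNA per cell cannot be told apart. All 6 granulosa markers and all 6 oocyte markers were well above background on both arrays, as the label ovary implies. For the counts that follow, 9510 of all 15260 genes (62.3%) were below 0 after scaling and 5750 were above. Summed signals, here and below before scaling, were 101767 and 101916 units for granulosa markers. After scaling, 2 of the granulosa markers were higher and 4 lower with the agonists (median -0.67, from -1.17 to 0.38). Their near-equal sums thus do not mean that the single markers were equal. Oocyte markers summed to 135977 and 120931 units (2 higher and 4 lower after scaling, from -0.13 to 0.21). The 3 theca markers summed to 16719 and 18105 units (1 higher and 2 lower after scaling, from -0.41 to 0.79). All 6 markers of dividing cells were lower (41665 and 51867 units, median -0.53), and all 4 surface epithelium markers were higher (22859 and 9011 units, median 1.01). The 3 macrophage markers with a probe here were higher (6719 and 4773 units, median 0.76), and of 4 endothelial markers 2 were higher, 1 was lower and Tek was not well above background on both arrays. Markers of dividing cells were lower before scaling too (median -0.29). The ribosomal protein genes then had a median of 0.06 and all genes one of 0.15. Relative to the median of all genes, the dividing markers lay at -0.44 and the ribosomal protein genes at -0.09. After scaling, surface epithelium and macrophage markers were higher and oocyte markers stayed near 0 (median -0.02). The part of any of these cells in the result was not tested.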

How the data were processed

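Total RNA of each condition was labelled with Cy3 and hybridised to 1 Agilent SurePrint mouse expression array. The authors read the images with Agilent Feature Extraction (10.10.1.1 per the file headers) and deposited for each spot a background-corrected intensity, with no scaling between arrays, and other marks (0 or 1) that flag saturated spots, outlying spots and spots well above background. Their value table held the same intensity times 1.99 (agonists) and 2.19 (antagonists), with a largest relative deviation of 4.97e-10, so its direction, scale and centring were known.

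Control and outlier spots were left out, log2 signals were centred on the array's 75th percentile, and spots were averaged per probe. A probe counted as measured where over 50% of its spots were well above background on both arrays. Of 55674 probes, 27230 were named through RefSeq accessions (GRCm38.p6, names only, since the array was designed on mm9). A gene was read from its probe of the highest mean signal. The thresholds were 0.32 on the log2 scale and 2-fold. With 1 array per group no test was made, and the number of arrays limits the precision. Of the 59305 non-control spots, 65.4% and 61.6% were well above background with agonists and antagonists.

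The members and lists were chosen with earlier results of these data known. Genes named are the 5 highest and 5 lowest of each subunit, members at several spots, members whose probes differ by over 0.5 or are not well above background, paralogs with their parents, the stalk, Rpsa, and the highest and lowest of each list, with further list members chosen after their values were seen. Some genes that this rule names are not reported here. Alternatives covered scaling (none, median, commonly detected probes, quantile, loess with span 0.3, spike-ins), the authors' values, normexp on median spot signals (offset 50), outliers, summaries of spots and probes, filters on dim probes, NM accessions only and paralogs left out. The calculation was tested on simulated data. Python 3.11.15, numpy 2.4.6, pandas 2.3.3, R 4.3.3 and limma 3.58.1 were used.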

Additional observations from a re-analysis of the deposited data

How the results depend on the processing

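The median log2 ratio of the ribosomal protein genes, the medians of large and small subunit and the numbers of genes higher or lower by at least 0.32 (log2) depended on the scaling, since a constant per array shifts all genes alike. Without scaling the medians were 0.058, 0.077 (large) and 0.045 (small), with 1 gene higher and 0 lower. With spike-in scaling they were 0.091, 0.11 and 0.079, with 1 higher and 0 lower. In the authors' values they were -0.083, -0.063 and -0.095, with 1 higher and 0 lower. Quantile normalization gave -0.0025, 0.0036 and -0.013, with 1 higher and 0 lower, and put the members 0.049 above all genes instead of 0.09 below. Loess gave -0.0082, 0.0038 and -0.011, with 1 higher and 0 lower. The gene higher in these settings was Rpl22l1. The number lower by at least 0.32 was 15 with scaling on the median, 11 with scaling on commonly detected probes and 1 with normexp. In these settings the median of all genes was -0.15, -0.13 and -0.10. The share of all genes past the threshold is not given for the alternative settings, so their counts of members have no background beside them. With the probe of the lowest signal the SD over members was 0.17 and 2 genes were higher, and without the filter on dim probes 1 gene was higher; these follow from the dim probes taken in. The median of members minus that of all genes was -0.029 with normexp, -0.041 among bright probes and -0.012 after loess, and the difference between the subunits, large minus small, ran from 0.0092 (normexp) to 0.034 (NM accessions). Of all main values under the alternatives, 9 changed sign, 23 moved and 138 moved by less than the SD over members (0.10) or, for counts and SDs, by up to 1.5 times; for the differences just given this tolerance is wide. Of 532 values for 32 genes, 457 moved by less than the software error and 75 by more. Leaving out Rpl22l1 was chosen after seeing the data and gave an SD of 0.08 and a median of -0.19. No paired analysis was possible because there is a single array on either side and nothing was tested. Signal over background limits the values of the dim probes, and no setting supplies the spread between ovaries.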
